A study of Triticum aestivum with 2 samples.

Results

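The 41 circular RNAs (circRNAs) described here are the intergenic circRNAs of wheat leaves that lie outside a pair of dense clusters on chromosomes 7A and 7D. They make up 46.6% of the 88 circRNAs in the deposited table. All circRNAs that the table classes as intergenic were taken, 53 in number, and the 12 that lie inside either cluster by their coordinates were left out. The samples were leaves of Triticum aestivum cv. Aikang 58 at the two-leaf stage, in hydroponic culture. One group was treated with polyethylene glycol (PEG) 6000 at 20%, which brings the solution to -0.975 MPa and draws water from the roots, and the other received nutrient solution alone as the control. Both were harvested after 12 h, and leaves of 3 pots were combined into 1 library per group, so there were 2 libraries, no replicates and no error between plants. RNA of both groups was enriched for circRNAs before sequencing.

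A circRNA forms when the spliceosome joins a downstream splice site back to an upstream one, so that the RNA closes on itself and has no free end for exonucleases to attack. Sequencing detects it through reads that cross this back-splice junction, and several circRNAs can arise from 1 place when different splice sites are joined, which is called alternative back-splicing. "Intergenic" means only that no annotated transcript covers the junction. In bread wheat, a hexaploid with subgenomes A, B and D, parts of the assembly used were only scaffolds assigned to a chromosome arm. None of the 41 circRNAs carried a transcript or gene name in the table, so that no function can be attached to them and the leaf identity of the samples could not be checked on marker genes. Each is named by its chromosome or scaffold and its first and last base in the IWGSC1.0+popseq assembly. The study also assayed some circRNAs by real-time PCR in biological replicates. Among them were 5A:128534161|128535165, IWGSC_CSS_2BL_scaff_7985665:1994|3344, IWGSC_CSS_5AL_scaff_2801994:5461|6705 and 6B:195302800|195307032. It reported all of those assayed as circular, and most with the pattern seen in sequencing. Those values were not used here.

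The whole table held 353 junction reads from the control and 124 from PEG. The lowest count above 0 was 2 in each library, so a 0 may hide a single read. Of the PEG reads, 46 belonged to 1 chloroplast circRNA with 0 reads in the control. Ratios of PEG over control are given on the scaling that the deposited log2 values carry, in which PEG reads are multiplied by 1.37. Other scalings are named where they matter: library totals exchanged (a factor of 0.731), junction totals (2.85, which equalises the junction reads of both libraries) and nuclear junction totals (4.53, the same with the chloroplast circRNA left out). Their exact (Clopper-Pearson) 95% intervals cover counting error only, and reads copied by PCR would make them too narrow.

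The intergenic circRNAs were spread over 13 of the 21 wheat chromosomes. Subgenome B held 17 of them, D 16 and A 8. By homoeologous group, that is, the set of corresponding A, B and D chromosomes, group 5 held 11, group 2 held 9, group 6 held 7, groups 1 and 3 held 5 each and group 7 held 4. Group 4 held none, and neither did chromosomes 1A, 3A and 3B, while 7A and 7D held only the clusters left out here. Anchored chromosomes carried 22 and scaffolds 19. The plus strand was given for 21, the minus strand for 16, and for 4 the strand was unresolved.

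Genomic span was far from even. It ran from 61 nt (6B:180465133|180465193) to 4233 nt (6B:195302800|195307032), with a median of 1336 nt. Nevertheless 19 of the 41 fell between 1336 and 1507 nt and 9 more between 823 and 1005 nt, bands that were drawn after the spans had been seen. Only 6 spanned less than 200 nt and 2 more than 2000 nt. For all 41 the predicted length equalled the full genomic span.

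**Figure D1:**
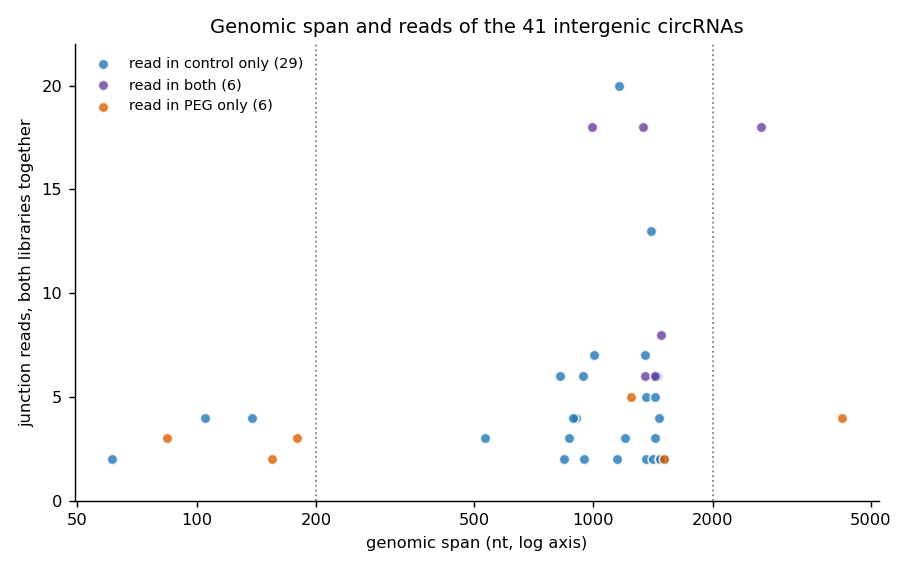
Genomic span in nt (log axis) against junction reads of both libraries together, 1 point for each of the 41 intergenic circRNAs, coloured by the library in which it was read. Dotted lines mark 200 and 2000 nt. Most points lie between 823 and 1507 nt, and 3 of the 6 points below 200 nt were read in PEG only.

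The comparison between libraries asks how junction reads of these circRNAs differ between dehydrated and well-watered leaves. Their junction reads summed to 189 for the control and 37 for PEG. The ratio was thus 0.268 (0.183 to 0.383), that is, 3.73-fold lower in PEG. In bulk tissue, fewer cells of a type and less RNA per cell cannot be told apart. Of the 41, 29 were read in the control only, 6 in PEG only and 6 in both libraries. A 0 may hide a single read, so 29 zeros in PEG against 6 in the control could make the ratio too low. The interval does not cover this, and how far it goes was not tested. The 46 PEG reads of the chloroplast circRNA move with this comparison, and their part in it was not tested beyond the scalings that follow. The size of the difference depends on the scaling. With the library totals exchanged the ratio was 0.143 (0.0977 to 0.204). On nuclear junction totals it was 0.886 (0.605 to 1.27), an interval that includes 1. These totals hold the reads of the 41 themselves.

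As a share, the intergenic circRNAs gave 53.5% of the control junction reads (48.2% to 58.8%) and 29.8% of the PEG reads (22.0% to 38.7%). With the chloroplast circRNA left out, the PEG share was 47.4% (36.0% to 59.1%), an interval that overlaps that of the control. On the deposited scaling the 12 clustered circRNAs on 7A and 7D had a ratio of 0.192 (0.0842 to 0.389), and the 34 nuclear circRNAs with an annotated transcript had 0.438 (0.285 to 0.658). These intervals overlap that of the 41 circRNAs, and no test of the differences was made.

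**Figure D2:**
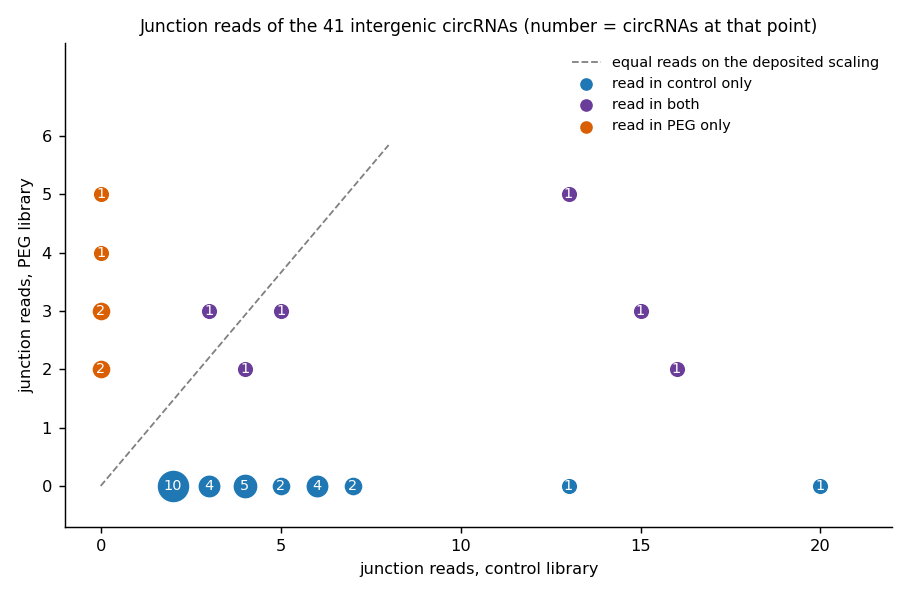
Junction reads in the control library (x axis) and the PEG library (y axis) for the 41 intergenic circRNAs. The number in each point counts the circRNAs with that pair of reads, and the dashed line marks equal reads on the deposited scaling. Of the 41, 29 lie on the x axis, with up to 20 control reads, and 6 on the y axis, with up to 5 PEG reads.

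Reads were unevenly spread. The 5 with at least 10 reads held 87 of the 226 reads, or 38.5%, whereas 18 had only 2 or 3 reads. For each circRNA, an exact binomial test (two-sided) asked whether its reads split between the libraries other than by the scaling, with Benjamini-Hochberg adjustment over all 88 circRNAs at a threshold of 0.05. With 1 library per condition, it speaks of these libraries and not of dehydration as such. In it 2 of the 41 were lower in PEG, where 3.41% of all circRNAs were called lower. As higher, 0 of the 41 were called, against 1 of all 88. At an unadjusted p under 0.05, 10 of the 41 were lower and 2 higher, against 15 and 5 of all 88. With library totals exchanged, 10 of the 41 passed after adjustment as lower. The share of all 88 on that scaling is not given here, so no background stands beside this count.

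The circRNA with the most reads was IWGSC_CSS_6BS_scaff_2990619:1337|2493, on the minus strand of a scaffold of the short arm of 6B, with a span of 1157 nt. The control gave 20 reads and PEG 0. The ratio lay between 0 and 0.277, and the exact adjusted p was 0.0013. It shared its scaffold with no other circRNA. The other call was IWGSC_CSS_5DS_scaff_2774127:618|2014, with 13 control reads and 0 PEG reads (ratio 0 to 0.449, exact adjusted p = 0.0232). Both calls were lost on junction totals, at exact adjusted p of 0.0657 and 0.218, and on nuclear junction totals, at 0.19 and 0.634.

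The other well-read circRNAs did not pass. 5A:128534161|128535150 had 16 control and 2 PEG reads, a ratio of 0.171 (0.0191 to 0.728, exact adjusted p = 0.107). IWGSC_CSS_2BL_scaff_7985665:1994|3329 had 15 and 3 reads, a ratio of 0.274 (0.0508 to 0.968, exact adjusted p = 0.189). These single-circRNA intervals stay below 1, although neither value survived the adjustment on the deposited scaling. With library totals exchanged both passed as lower (exact adjusted p = 0.0019 and 0.00716), and without scaling the 5A circRNA did (exact adjusted p = 0.0231). IWGSC_CSS_2AL_scaff_6433346:437|3086, the longer-spanning of the well-read circRNAs at 2650 nt, had 13 and 5 reads, a ratio of 0.526 (0.147 to 1.57, exact adjusted p = 0.387). With 5 PEG reads it was, together with IWGSC_CSS_5AL_scaff_2801994:5461|6705, the highest of the 41 in PEG. To pass after adjustment a circRNA read in 1 library alone would need 12 reads in the control or 7 in PEG. Of the 41, 5 had that many control reads, but only the 2 called as lower were read in the control alone. None had 7 PEG reads.

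By the study's own criterion, a 2-fold difference of the deposited log2 values, 21 of the 41 were lower in PEG and 6 higher. Among all 88 circRNAs 52.3% were lower and 18.2% higher, against 51.2% and 14.6% here, so these counts are near the background. Since 0 reads enter as 1 read, 2 PEG reads against 0 gave a deposited fold of 2.74 and were called, while 2 control reads against 0 gave 1.46 and were not. That left 10 circRNAs with 2 control reads uncalled, and 11 of the 21 lower and all 6 higher ones had at most 5 reads. Other scalings moved the split of 6 higher against 21 lower. It was 4 against 34 with library totals exchanged and 6 against 33 without scaling. On junction totals it was 7 against 9, and on nuclear junction totals 19 against 2. The split of all 88 on these scalings is not given here, so no background stands beside them.

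Many of the circRNAs shared borders. With circRNAs that overlap by 1 base or more taken as 1 locus, the 41 came from 33 loci, and 15 of them lay in 7 loci that held several. In each of these loci circRNAs shared an exact start or an exact end, in 3 pairs the start and in 5 pairs the end, and the other border differed by 6 to 147 nt. In 4 of the 7 the strands given were mixed or unresolved, and no splice site was examined, so whether these are products of alternative back-splicing was not tested. None of the 7 loci held a circRNA with an annotated transcript. Together the 15 circRNAs had 93 control and 11 PEG reads, a ratio of 0.162 (0.0781 to 0.303), while the 26 that shared no locus had 96 and 26 reads, a ratio of 0.371 (0.231 to 0.577). A locus counts as shared only where several circRNAs were each detected, and most reads came from the control. All 15 had control reads, and all 6 circRNAs read in PEG only were among the 26. The grouping thus depends on the same reads as the ratios, and the difference between them was not tested.

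On 5A, 3 circRNAs overlapped between 128534161 and 128535165. 5A:128534161|128535150 held 16 of the 25 control reads and both PEG reads of the locus. 5A:128534161|128535165 begins at the same base, ends 15 nt further on and had 7 control reads, and 5A:128534308|128535150 begins 147 nt later, shares the end and had 2. The first and the last were given on the minus strand and the other on the plus strand, so that circRNAs with a common start carried opposite strands. With its reads summed the locus was lower in PEG, at 25 control and 2 PEG reads (ratio 0.109, 0.0126 to 0.439, exact adjusted p = 0.00153 over the 68 loci of the table).

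On a scaffold of the long arm of 2B, IWGSC_CSS_2BL_scaff_7985665:1994|3329 and IWGSC_CSS_2BL_scaff_7985665:1994|3344 shared the start and differed at the end, again by 15 nt. The first, on the plus strand, had 15 control and 3 PEG reads, and the second, of unresolved strand, had 7 and 0. Summed, the locus was lower in PEG with 22 and 3 reads (ratio 0.187, 0.0358 to 0.621, exact adjusted p = 0.0156). On the 5DS scaffold, IWGSC_CSS_5DS_scaff_2774127:618|2014 had 13 of the 15 control reads and IWGSC_CSS_5DS_scaff_2774127:618|2091, which ends 77 nt later and has no resolved strand, had 2. PEG had 0 reads there (ratio 0 to 0.382, exact adjusted p = 0.00362 over loci). Together with the single circRNA of the 6BS scaffold (exact adjusted p = 0.000672 over loci), 4 of the 33 loci, or 12.1%, were lower in PEG, against 10.3% of all loci. On junction totals none of the 4 passed (exact adjusted p of 0.0508 to 0.457).

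The remaining shared loci differed at the start. 1D:107208140|107209585 had 6 control reads and 1D:107208124|107209585, which begins 16 nt earlier, had 2, both with 0 in PEG. IWGSC_CSS_2BL_scaff_8076317:483|1891 and IWGSC_CSS_2BL_scaff_8076317:475|1891, 8 nt apart, had the same reads, 6 and 2 in the control and 0 in PEG. Neither locus passed (8 reads against 0, exact adjusted p = 0.111 each). The other loci were read in both libraries. 6D:24078974|24080453 had 5 control and 3 PEG reads, and 6D:24079021|24080453, which begins 47 nt later, had 5 and 0. 3D:115012797|115014147 had 3 reads in each library, and 3D:115012791|115014147, which begins 6 nt earlier and is of unresolved strand, had 2 and 0. Their summed ratios were 0.411 (0.0726 to 1.59) on 6D and 0.821 (0.128 to 4.22) on 3D. In each of the 4 shared loci with PEG reads, a single circRNA held all of them, although 2 or 3 PEG reads per locus, with a lowest count of 2, leave little depth to detect a further one.

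**Figure D3:**
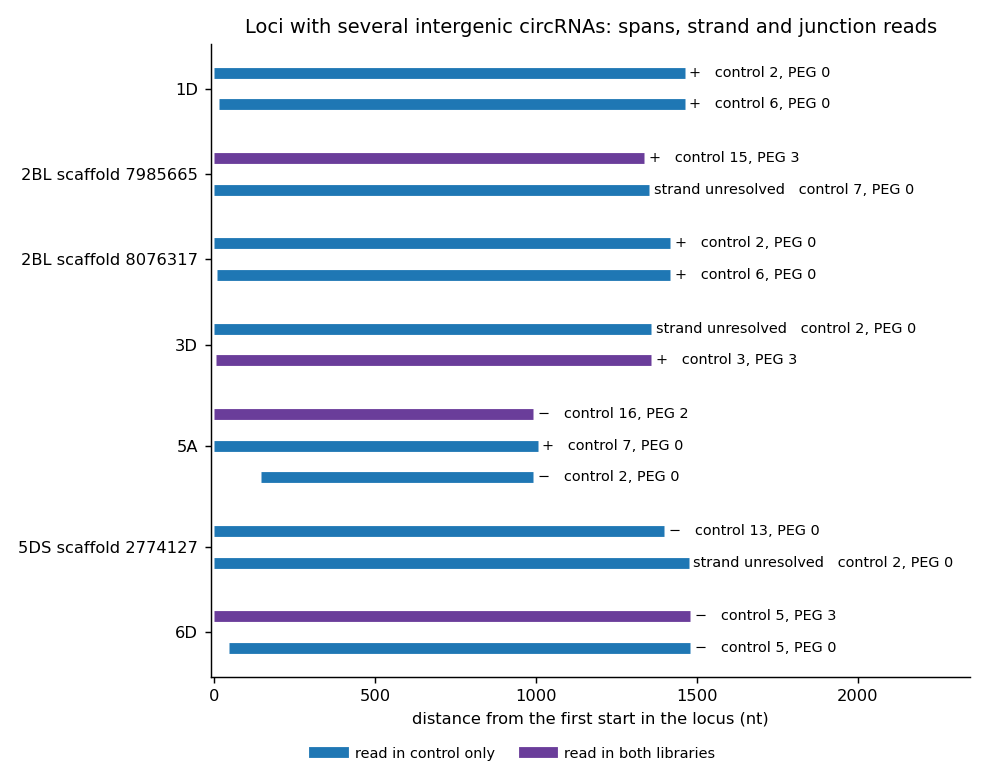
Spans of the 15 intergenic circRNAs in the 7 loci that hold several, as distance in nt from the first start of the locus, with strand and junction reads beside each bar. Blue bars were read in the control only and purple bars in both libraries. Borders that differ are 6 to 147 nt apart, and each locus has at most 1 purple bar.

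Some intergenic circRNAs lay next to another circRNA without overlapping it. Within 5000 bases this held for 8 of the 41. On 1D, 1D:107206656|107207522, of 867 nt with 3 control reads, ended 601 nt before the shared locus described above. On 5D, 5D:147436328|147437150, of 823 nt with 6 control and 0 PEG reads (exact adjusted p = 0.189), ended 738 nt before 5D:147437889|147439226, a circRNA of 1338 nt classed as sense overlapping with 3 control reads. In coordinates, both pairs have a shorter circRNA first and a longer one after a gap. The strands given were minus then plus on 1D, and plus for both on 5D. The shared locus on 3D followed 689 nt behind 3D:115010704|115012101, another sense overlapping circRNA, of 1398 nt, with 17 control and 0 PEG reads. Elsewhere on 3D, 3D:107862756|107864109 with 5 control reads and 3D:107865941|107867447 with 2 were 1831 nt apart, and PEG had 0 reads of either. Of all the circRNAs in these neighbourhoods, 3D:115012797|115014147 alone was read in PEG.

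**Figure D4:**
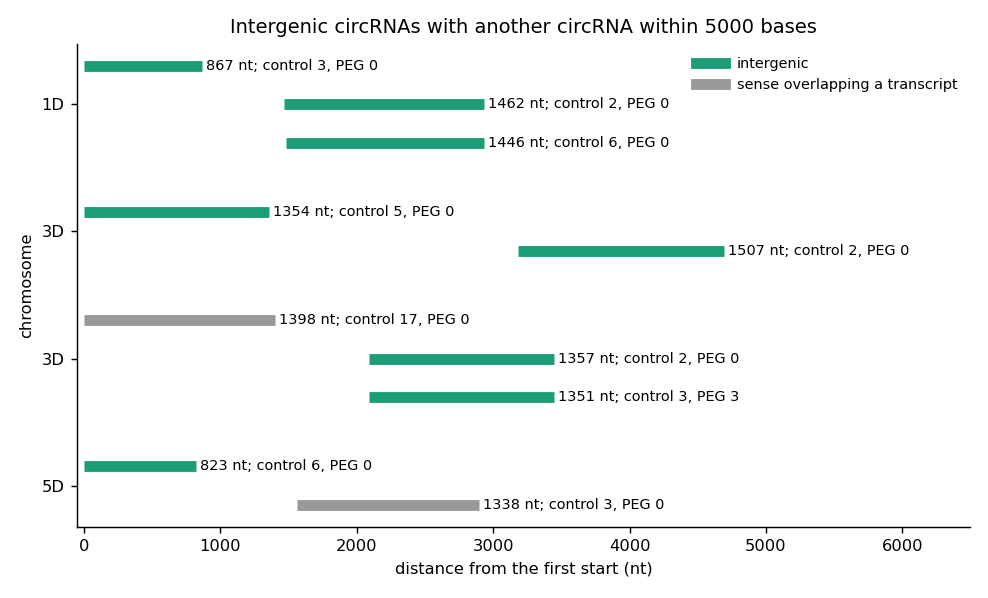
Intergenic circRNAs (green) with another circRNA within 5000 bases, and the sense overlapping circRNAs (grey) beside them, as distance in nt from the first start. Span and junction reads stand beside each bar. Gaps run from 601 to 1831 nt, and 1 of the bars has PEG reads.

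Very short spans were split between the libraries. The 6 intergenic circRNAs under 200 nt had 10 control and 8 PEG reads, a ratio of 1.09 (0.376 to 3.08). The ratio was 0.584 with library totals exchanged, 0.8 without scaling, 2.28 on junction totals and 3.62 (1.24 to 10.2) on nuclear junction totals, so its direction depends on the scaling. On the deposited scaling the 35 of 200 nt or more had 179 and 29 reads, a ratio of 0.222 (0.144 to 0.330). The limit of 200 nt was set with the spans and earlier results known, and the difference was not tested. 7B:162875562|162875740 (179 nt) and IWGSC_CSS_6AS_scaff_4412301:3349|3432 (84 nt) had 3 PEG reads each and 0 control reads, and 5B:127808198|127808352 (155 nt) had 2 and 0. In the control alone were 6B:40781487|40781624 (138 nt) and IWGSC_CSS_7BL_scaff_6659916:68|172 (105 nt), with 4 reads each, and 6B:180465133|180465193 (61 nt), with 2. No short circRNA was read in both libraries. Of the 6, 5 came from subgenome B, 1 from A and none from D.

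Besides the 3 short ones, PEG alone held 3 other intergenic circRNAs. IWGSC_CSS_5AL_scaff_2801994:5461|6705, of 1245 nt, had 5 PEG reads (exact adjusted p = 0.148), and 6B:195302800|195307032, of 4233 nt, had 4 (exact adjusted p = 0.189). IWGSC_CSS_2AL_scaff_6433693:844|2347, of 1504 nt, had 2. None of the 6 shared a locus with another circRNA. These 6 gave 19 of the 37 PEG reads. IWGSC_CSS_7BL_scaff_6691207:3871|5300, with 4 control and 2 PEG reads, completes the circRNAs read in both libraries. On junction totals the 5AL circRNA passed the test as higher in PEG (exact adjusted p = 0.0261), and on nuclear junction totals 6B:195302800|195307032 passed as well (exact adjusted p = 0.0157).

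The subgenomes differed in where PEG reads fell. Subgenome D had 67 control and 6 PEG reads, a ratio of 0.123 (0.0434 to 0.281), with none of its 16 circRNAs read in PEG only. Its ratio stayed below 1, interval included, under each of the 5 scalings tried, at 0.405 (0.144 to 0.929) on nuclear junction totals. However, only 2 of the 16 were read in PEG, and 14 had 0 there. Single reads hidden by these zeros could raise the ratio, and the intervals take each factor as known. Subgenome B had 78 and 14 reads, a ratio of 0.246 (0.128 to 0.437), and subgenome A 44 and 17, a ratio of 0.529 (0.283 to 0.944). The ratio of A turned to 1.10 (0.589 to 1.96) on junction totals and to 1.75 (0.937 to 3.12) on nuclear junction totals. In A, 3 of 8 circRNAs were read in PEG only and gave 10 of its 17 PEG reads. Among subgenome B circRNAs the 6 on anchored chromosomes, 4 of them under 200 nt, had 10 control and 9 PEG reads, and the 11 on scaffolds had 68 and 5. In subgenome A the order was the opposite, with 25 and 2 reads for the 3 on anchored chromosomes, all of the 5A locus, and 19 and 15 for the 5 on scaffolds. Over all subgenomes, anchored chromosomes and scaffolds had similar ratios, 0.280 (0.156 to 0.476) and 0.258 (0.152 to 0.419). None of these differences between subgenomes was tested.

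**Figure D5:**
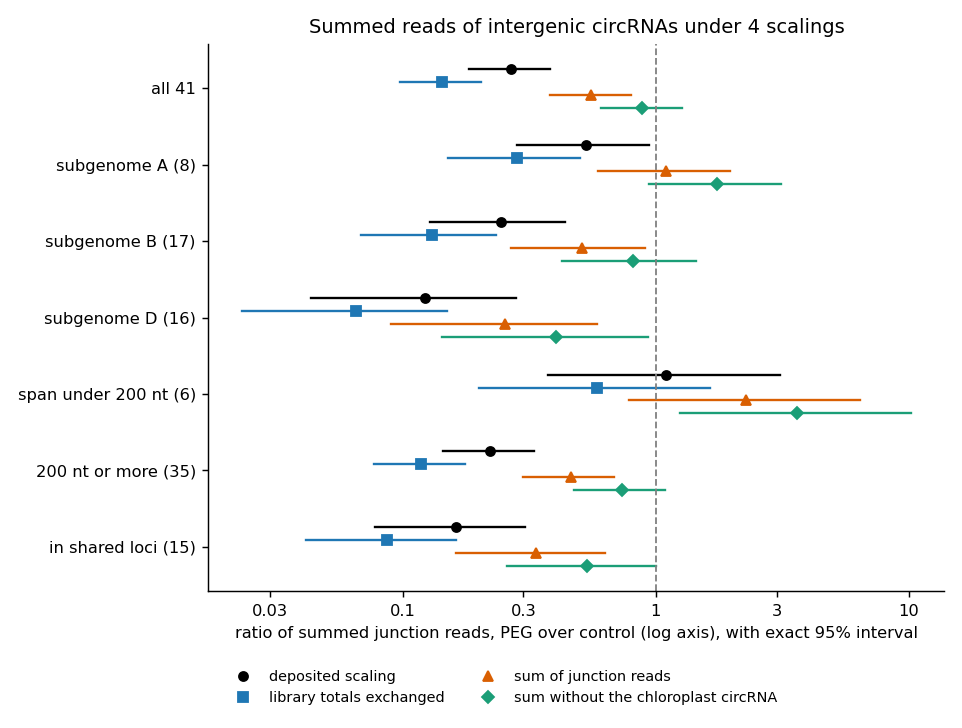
Ratio of summed junction reads, PEG over control (log axis), with exact 95% intervals, for all 41 intergenic circRNAs and for groups of them (number of circRNAs in brackets) under 4 scalings. The dashed line marks a ratio of 1. On the deposited scaling (black) the intervals of all groups but the short spans lie below 1, and on nuclear junction totals (green) that of subgenome D lies below 1 and that of the short spans above.

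The rest of the circRNAs were read thinly. IWGSC_CSS_5AL_scaff_2769159:6619|7560, of 942 nt, had 6 control and 0 PEG reads (exact adjusted p = 0.189). A group of 11 circRNAs, 5 of subgenome B and 6 of D, among them 1D:107206656|107207522 and 3D:107865941|107867447 already named as neighbours, had 2 to 4 control reads and 0 PEG reads over spans of 534 to 1507 nt. A circRNA read in the control alone needs 6 reads to reach an unadjusted p under 0.05, so differences between the libraries were not detectable for these 11. By strand, the 4 circRNAs of unresolved strand had 13 control and 0 PEG reads (ratio 0 to 0.449), those on the plus strand a ratio of 0.354 (0.213 to 0.565) and those on the minus strand 0.220 (0.116 to 0.390).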

How the data were processed

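Back-splice junctions were read in a control and a PEG library of wheat leaf RNA, 1 of each. The authors filtered reads for quality and aligned them to IWGSC1.0+popseq with BWA-MEM (version not given in the sources used here). They identified circRNAs with CIRI and the Ensembl Plants annotation. The classes, such as intergenic, are those the authors deposited. For each circRNA the authors deposited the count of junction reads in each library, not normalised. The deposited log2 values are these reads with 0 entered as 1 and PEG multiplied by 1.37. This relation held for all 88 circRNAs (tolerance 1e-06). The study's text lists the library totals in an order that would make PEG the larger library, hence the alternative with totals exchanged. The deposited predicted length, in nt, is from the authors. Ratios, Clopper-Pearson intervals and exact binomial tests used scipy 1.17.1 under Python 3.11.15, and figures used matplotlib 3.10.9. The exact test was also run on reads simulated from its own binomial model. That simulation held no variation between plants or libraries, so it cannot show that the calls hold beyond counting error. CircRNAs overlapping by at least 1 base form 1 locus.

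Named are circRNAs with at least 5 reads, with PEG reads, in a shared locus, or spanning under 200 or over 2000 nt. Others were named as their neighbours within 5000 bases. The circRNAs and groups were chosen with earlier results of these data known. The alternatives were 4 other scalings, minimums of 3, 5 and 10 reads, 1 or 0.5 reads added, a 4-fold cutoff, other definitions of loci and short spans, and subsets of circRNAs. Sequences were not used here, as no genome of this build was at hand.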

Additional observations from a re-analysis of the deposited data

How the results depend on the processing

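No paired analysis was possible because each condition had 1 library, and for the same reason no replicate could be left out. Ratios on the deposited scaling are in the report. With the library totals exchanged they were 0.143 for all 41 circRNAs, 0.282 for subgenome A, 0.118 for spans of 200 nt or more, 0.150 for chromosomes and 0.138 for scaffolds. On junction totals they were 0.557 for all, 1.10 for A, 0.511 for B, 0.461 for 200 nt or more, 0.583 for chromosomes, 0.537 for scaffolds and 0.337 for shared loci. On nuclear junction totals they were 0.886, 1.75, 0.812, 0.733, 0.927, 0.854 and 0.535 in the same order, 0.405 for D and 3.62 for short spans. CircRNAs with at least 10 reads over both libraries had 0.178, but they passed this filter mainly on control reads.

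The exact test called 10 lower with totals exchanged, 0 lower and 1 higher on junction totals, and 0 and 2 on nuclear junction totals. At an unadjusted p under 0.05 on the deposited scaling, 10 of the 41 were lower and 2 higher, against 15 and 5 of all 88. Testing only circRNAs with at least 10 reads over both libraries called 4 lower, with fewer tests to adjust for. The 5 of the 41 that passed this filter had 77 control and 10 PEG reads. They were kept mainly for their control reads, so these calls add no support. Over loci the calls were 8 lower with totals exchanged, 0 lower and 1 higher on junction totals, and 0 and 2 on nuclear junction totals. The fold cutoff gave 34 lower with totals exchanged, 33 without scaling, 9 on junction totals, 2 on nuclear junction totals (with 19 higher), and 9 at 4-fold. Counts over all circRNAs or all loci are not given for these alternatives, so none of them can be set against a background.

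Scalings of single circRNAs were chosen after seeing the data. Ratios turned on junction totals and on nuclear junction totals for IWGSC_CSS_2AL_scaff_6433346:437|3086 (1.09 and 1.74), 6D:24078974|24080453 (1.71 and 2.72) and IWGSC_CSS_7BL_scaff_6691207:3871|5300 (1.42 and 2.26), and with totals exchanged for 3D:115012797|115014147 (0.731). None of these passed the exact test. Beyond the change of factor, the cause was not tested. Depth limits every value: 18 of the 41 circRNAs had 2 or 3 reads.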

Other observations

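The distances between alternative borders recurred at different loci. A distance of 15 nt between ends was found in the locus on 5A and on scaffold IWGSC_CSS_2BL_scaff_7985665. The distance of 47 nt between the starts on 6D was also that between ends of clustered circRNAs on 7A and 7D. It made 5 pairs in 3 loci in all, but the pairs on 7D repeat the same 2 ends. Likewise 16 nt separated the starts on 1D and of 2 pairs on 7D, which repeat the same 2 starts. Equal spans occurred too. 3D:115012797|115014147 and IWGSC_CSS_2BL_scaff_7985665:1994|3344 both spanned 1351 nt, IWGSC_CSS_2BL_scaff_8076317:483|1891 and a clustered circRNA on 7D both 1409 nt, and 6D:24079021|24080453 and another clustered circRNA on 7D both 1433 nt. On 1D and 5D a span of 823 to 867 nt came first in coordinates. A longer one followed after 601 to 738 nt. The same order occurred in the cluster on 7A. There a circRNA of 829 nt ended 786 to 793 nt before circRNAs of 1419 to 1466 nt. The strands were not alike: minus then plus on 1D, plus for both on 5D, and minus then plus or minus on 7A. These coincidences were noticed after the coordinates had been seen and were not tested, and whether the loci share sequence was not analysed here.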
